A study of Mus musculus with 6 samples.

Results

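Interferon-stimulated genes are a set of 48 mouse genes listed by name for their response to interferon, and all 48 were found by symbol in the deposited expression table of 52636 genes. Of these, 42 averaged 1 TPM or more and were tested, among 9775 genes tested in all. TPM is a level per transcript length, so that levels of different genes can be set side by side. The levels came from bulk RNA of bone marrow neutrophils of C57BL/6N mice aged 10 weeks, in 3 libraries labelled WT and 3 labelled LRP5-KO. The LRP5-KO mice have the genotype LRP5f/f/Lyz2Cre+, in which a Cre recombinase driven from the Lyz2 gene removes the floxed part of Lrp5, a receptor of the LDL receptor family, in neutrophils and also in monocytes and macrophages. Whether the WT mice carried floxed alleles or the Cre, and the sex of the mice, are not given in the labels. The comparison asks how loss of the receptor in myeloid cells relates to the RNA of resting marrow neutrophils.

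Interferons are secreted proteins that warn cells of infection. Type I interferons bind the receptor IFNAR, whose kinases JAK1 and TYK2 lead to the complex ISGF3. This complex holds STAT2 and IRF9 and binds a DNA element called the interferon-stimulated response element. Interferon gamma acts through its own receptor with JAK1 and JAK2. Neutrophils express part of this program without infection, and it is held up in marrow by low tonic interferon signals.

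The element is read as pairs of GAAA separated by 2 bases, so the members' promoters were searched for the word made of GAAA, any 2 bases and GAAA, which on the other strand reads as TTTC, any 2 bases and TTTC. RefSeq promoters of 300 bases (250 before and 50 after a transcript start, build GRCm38.p6) were matched for 39 of the 48 members, some with more than 1 start, which gave 47 promoters. The word stood in 26 of these 47 promoters (55.3%) against 3.44% of all 32851 promoters in the table, and overlapping words were counted once per promoter. A match describes letters and not a bound site. The stretches below, each of 60 bases before the start on the gene's own strand, are shown because they belong to members whose levels are given in full later. The last of them, Isg15, is a member with nearly equal levels in both groups. Capitals mark the GAAA or TTTC letters of the word.
Gbp2 (chr3:142620579-142620638, plus strand): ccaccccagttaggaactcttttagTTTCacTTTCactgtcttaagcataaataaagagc
Gbp7 (chr3:142530258-142530317, plus strand): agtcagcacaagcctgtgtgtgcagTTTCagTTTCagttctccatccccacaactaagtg
Trim30a (chr7:104465195-104465254, minus strand): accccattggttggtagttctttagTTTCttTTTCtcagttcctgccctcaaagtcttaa
Ifit1 (chr19:34640760-34640819, plus strand): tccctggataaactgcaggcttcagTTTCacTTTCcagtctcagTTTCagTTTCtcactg
Rsad2 (chr12:26456538-26456597, minus strand): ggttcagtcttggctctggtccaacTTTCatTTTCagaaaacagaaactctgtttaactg
Igtp (chr11:58199496-58199555, plus strand): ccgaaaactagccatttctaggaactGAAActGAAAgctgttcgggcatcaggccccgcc
Oas3 (chr5:120777700-120777759, minus strand): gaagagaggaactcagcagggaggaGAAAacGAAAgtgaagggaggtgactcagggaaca
Isg15 (chr4:156200862-156200921, minus strand): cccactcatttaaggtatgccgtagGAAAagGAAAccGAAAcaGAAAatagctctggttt
In the Ifit1 stretch the word occurs in 2 places, 104 and 85 bases before the start, and in Isg15 it repeats in 3 overlapping copies from 78 bases before the start.

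The libraries differed in more than their label. Lrp5 itself was 1.12, 1.31 and 1.42 TPM in WT replicates 1 to 3 and 1.68, 1.77 and 2.07 TPM in the libraries labelled LRP5-KO, so the targeted transcript was not lower there and every direction below rests on the labels. Lyz2, the site of the Cre insertion, stood at 53.1% of its WT mean (limma adjusted p = 0.00351). Total reads ranged from 249841492 to 340580330 per library. Ribosomal RNA was 1.20% and 1.30% of the reads of WT replicates 1 and 2. In WT replicate 3 it was 3.30%, nearer to the 2.69% to 2.98% of the libraries labelled LRP5-KO. Intronic reads were 7.78% to 9.0% in WT and 10.62% to 11.23% in the libraries labelled LRP5-KO. The deviation of genes in each library from their mean over the libraries also followed the GC content of their transcripts, with Spearman correlations across genes of −0.611 and −0.433 in WT replicates 1 and 2 and of 0.331 to 0.437 in the other libraries. Neutrophil markers dominated every library, Ly6g ranging from 920 to 1104 TPM, and no member of this 11-gene list was below 1 TPM. Siglech, a defining marker of plasmacytoid dendritic cells, the main producers of type I interferon, was between 0.341 and 0.646 TPM. Of the 6 listed genes of these cells 4 stayed below 1 TPM, and the highest value of any was 14.4 TPM.

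The members were expressed over a wide range, with 7 at 100 TPM or more on average, 32 from 10 to under 100 TPM, 3 from 1 to under 10 TPM and 6 under 1 TPM. Ifitm6, a neutrophil-rich member of the family of interferon-induced transmembrane proteins that hinder the entry of viruses, stood highest at 4363 ± 178 TPM in WT and 4399 ± 13.8 TPM (SD, n = 3 each) among the libraries labelled LRP5-KO. Ifitm2 and Ifitm3 followed, with WT means of 1230 and 1102 TPM, then Ifitm1 at 424 TPM and the Schlafen gene Slfn4 at 397 TPM. Mx1, Mx2, Gbp3, Gbp5, Iigp1 and Ifi44 were under 1 TPM in all 6 libraries, the highest single value among them being 0.925 TPM, and were not tested. Mx1, an antiviral GTPase gene that carries a disabling deletion in C57BL/6 mice, ranged from 0 to 0.124 TPM. The 16 interferon genes examined were also near the floor, since 15 were listed at 0 in every library and Ifng reached at most 0.0601 TPM.

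Most members were lower in the libraries labelled LRP5-KO. Of the 42 tested, 37 had a negative log2 fold change (88.1%), where 41.2% of all genes tested did, and the median was −0.13 against 0.04 for all genes. Fold changes were taken after adding 1 to each TPM, which makes those of low genes look smaller. In 19 members (45.2%) each library labelled LRP5-KO lay below each WT library, against 12.3% of all genes, and in 0 members did the groups separate the other way, against 17.4%. In limma 17 members had an unadjusted p under 0.05, which 23.5% of all genes did. Of these, 16 (38.1% of the members) were lower, against 9.12% of all genes, and 1 was higher, against 14.4%. After Benjamini-Hochberg adjustment over all genes 1 member was called, Gbp2, against 0.532% of all genes. For a single gene, an exact permutation test of 3 against 3 libraries cannot give a two-sided p below 0.1, which is the value of all 19 separated members. The labels do not say that the libraries came from separate mice, so the p-values measure the spread between these samples, which may be technical. In bulk RNA, fewer cells that express these genes and less of their RNA per cell cannot be told apart.

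**Figure D1:**
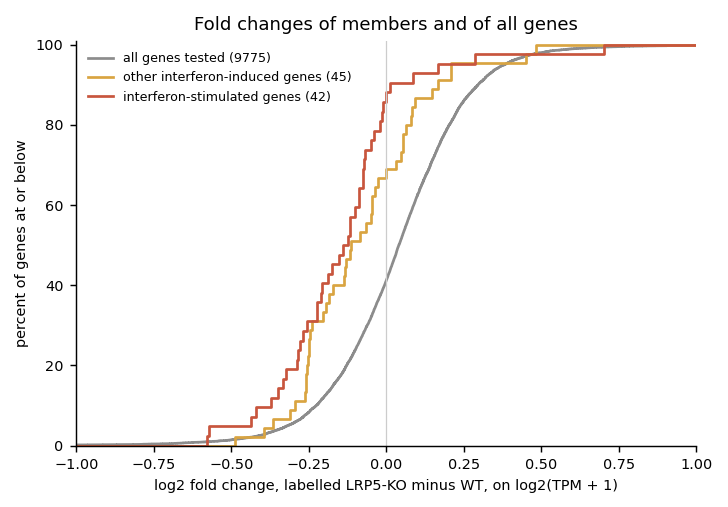
Cumulative distribution of log2 fold changes, libraries labelled LRP5-KO minus WT on log2(TPM + 1) (x axis), as the percent of genes at or below each value (y axis), for the 42 interferon-stimulated genes, a list of 45 other interferon-induced genes and all 9775 genes tested. The curve of the members lies to the left of that of all genes, crossing 0 at 88.1% against 41.2%.

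Gbp2, a guanylate-binding protein that coats pathogen vacuoles, was 38.9, 34.5 and 33.9 TPM in WT replicates 1 to 3 and 23.6, 23.6 and 23.9 TPM in the libraries labelled LRP5-KO. The groups were far apart, and the libraries labelled LRP5-KO were nearly equal. The SD of log2(TPM + 1) was smaller in the libraries labelled LRP5-KO than in WT for 71.4% of the members tested and 72.8% of all genes tested. Gbp2 fell by 0.57 on the log2 scale, with a standard error of 0.076 and an adjusted p of 0.0357 in limma, which is 33.7% less TPM by the means. Over the alternative settings its fold change lay between −0.64 and −0.50 and its limma adjusted p between 0.0105 and 0.178. With 1 library left out it was called only without WT replicate 3 and in none of the other 5 fits. Gbp2 lies on chromosome 3 from 142283566 to 142300972 on the plus strand of NCBIM37 (mm9), in a row with Gbp3 and Gbp7. Gbp7 was 18.9, 15.7 and 15.0 TPM in WT and 12.1, 11.7 and 12.4 TPM in the libraries labelled LRP5-KO, which gives −0.42 (log2 fold change, standard error 0.096, limma adjusted p = 0.0944). Its groups did not overlap either, while Gbp3, between them, had 0.707 to 0.870 TPM in WT and 0.558 to 0.867 TPM in the libraries labelled LRP5-KO.

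**Figure D2:**
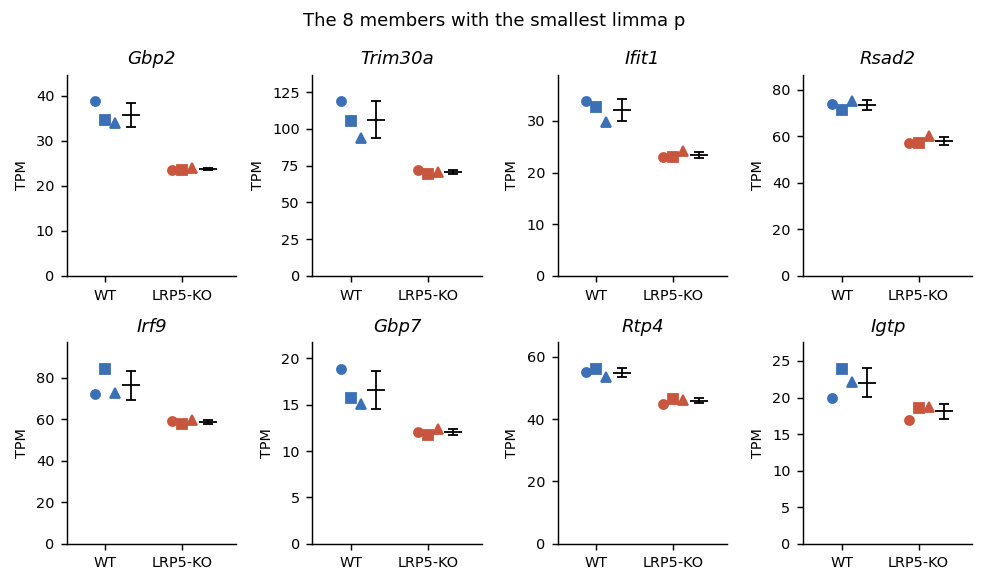
TPM (y axis, from 0) in each WT library and each library labelled LRP5-KO for the 8 members with the smallest limma p, with circles, squares and triangles for replicates 1, 2 and 3, and the mean and SD beside them in black. In all 8 panels the libraries labelled LRP5-KO lie below the WT libraries, in Gbp2 between 23.6 and 23.9 against 33.9 to 38.9 TPM.

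The immunity-related GTPases mark and disrupt vacuoles of intracellular microbes. Igtp was 19.9, 24.0 and 22.2 TPM in WT and 16.9, 18.6 and 18.7 TPM in the libraries labelled LRP5-KO (log2 fold change −0.27, limma adjusted p = 0.152). Irgm1, with a fold change of −0.14, also had groups without overlap, whereas those of Irgm2 overlapped at a fold change of −0.07. Ifi47, a GTPase of the same family, was the 1 member higher at an unadjusted p under 0.05. Its values were 4.60, 5.43 and 5.78 TPM in WT and 11.7, 5.24 and 12.2 TPM in the libraries labelled LRP5-KO (log2 fold change 0.70, standard error 0.27, limma adjusted p = 0.186). LRP5-KO replicate 2 lay within the WT range, so the difference rests on replicates 1 and 3. Ifi47 shares 111 exonic bases with the olfactory receptor gene Olfr56 in the mm9 annotation, which was at most 0.165 TPM. Without LRP5-KO replicate 2, Ifi47 was called (log2 fold change 1.05, limma adjusted p = 0.0390). Of the 9 genes of both GTPase families 6 were tested, 4 of them without overlap and lower, against 12.3% of all genes.

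All 3 tested IFIT genes were lower without overlap, against 12.3% of all genes. Their proteins bind viral RNA that lacks the cap marks of the host. Ifit1 was 33.9, 32.6 and 29.7 TPM in WT and 22.99, 23.07 and 24.13 TPM in the libraries labelled LRP5-KO, 27.1% less by the means (log2 fold change −0.44, standard error 0.075, limma adjusted p = 0.0648). Ifit2 was 10.5, 9.54 and 9.14 TPM in WT and 8.10, 8.01 and 8.40 TPM in the libraries labelled LRP5-KO (log2 fold change −0.22, standard error 0.078, limma adjusted p = 0.160). Ifit3 differed by less (log2 fold change −0.12, limma adjusted p = 0.304). Its close copy Ifit3b may share reads with it in the deposited values, so its own level is uncertain. The sum of both was 56.3, 53.3 and 54.7 TPM in WT and 48.0, 48.4 and 48.7 TPM in the libraries labelled LRP5-KO, again without overlap. Ifit1 summed with its copy Ifit1bl1 was 26.1% lower by the means, close to Ifit1 alone.

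Rsad2 and Cmpk2 lie side by side on chromosome 12 and encode viperin and a nucleotide kinase, which together supply a chain-terminating nucleotide against viral polymerases. Rsad2 was 74.0, 71.2 and 75.3 TPM in WT and 57.1, 57.2 and 60.2 TPM in the libraries labelled LRP5-KO (log2 fold change −0.33, standard error 0.064, limma adjusted p = 0.0675). Cmpk2 was 98.1, 86.5 and 84.8 TPM in WT and 66.7, 81.1 and 72.8 TPM in the libraries labelled LRP5-KO (log2 fold change −0.29, limma adjusted p = 0.153). Both genes were lower in every library labelled LRP5-KO than in any WT library, and Cmpk2 was the more variable of the pair. Isg20, an RNA exonuclease gene (log2 fold change −0.07, limma adjusted p = 0.859), gave no such separation, since WT replicate 1 (56.6 TPM) and LRP5-KO replicate 3 (51.6 TPM) stood above the other libraries (34.4 to 36.4 TPM).

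The OAS genes, most of whose proteins make the short adenylate chains that turn on RNase L, had no common direction. Oas3 was 116, 123 and 146 TPM in WT and 102, 104 and 110 TPM in the libraries labelled LRP5-KO (log2 fold change −0.28, limma adjusted p = 0.155), and Oas1a, at −0.17 (limma adjusted p = 0.258), also had groups without overlap. Oas2, which lies beside Oas3 on chromosome 5, had the opposite sign. It was 26.0, 29.2 and 40.6 TPM in WT and 37.9 to 38.8 TPM in the libraries labelled LRP5-KO, so that WT replicate 3 lay above all of these and the other WT libraries below (log2 fold change 0.29, limma adjusted p = 0.291). Without WT replicate 3, limma called Oas2 and Oasl1 as well as 7 other members, in a fit that called 19.6% of all genes. Oasl1 was 22.1 TPM in WT replicate 3 and from 10.7 to 14.1 TPM in the other libraries, and Oasl2 was low in WT replicate 3 and LRP5-KO replicate 1 (75.8 and 68.7 TPM against 113 to 121 TPM). Oas1a and Oas1g are close copies that could share reads, and the groups overlapped for their sum.

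Among the transcription factors of the pathway, Irf9, the DNA-binding part of ISGF3, stood apart. It was 72.3, 84.5 and 72.8 TPM in WT and 59.1, 57.8 and 59.5 TPM in the libraries labelled LRP5-KO (log2 fold change −0.37, standard error 0.080, limma adjusted p = 0.0855). Irf2, a repressor of interferon responses, was 106, 94.6 and 105 TPM in WT and 73.6, 81.5 and 96.2 TPM in the libraries labelled LRP5-KO (log2 fold change −0.29, limma adjusted p = 0.175), with LRP5-KO replicate 3 inside the WT range. Irf7, the factor that amplifies type I interferon, was nearly equal in both groups at 40.0 ± 2.82 and 39.9 ± 0.780 TPM (SD, n = 3 each), with a 95% interval of its log2 fold change from −0.18 to 0.17. Irf1 (log2 fold change −0.01) and Stat2 (−0.12) had groups that overlapped. Rnf31, a ubiquitin ligase gene, overlaps Irf9 on the same strand by 123 exonic bases in the mm9 annotation, and its level, 22.5 to 27.8 TPM, was no lower in the libraries labelled LRP5-KO.

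Of the nucleic acid sensors, Ifih1, which encodes the RNA sensor MDA5, was 17.1, 17.2 and 15.8 TPM in WT and 12.9, 14.5 and 15.3 TPM in the libraries labelled LRP5-KO (log2 fold change −0.22, limma adjusted p = 0.181). Ddx58, the gene of RIG-I, had a log2 fold change of −0.04, Dhx58 of −0.01 and the sensor of Z-form nucleic acids Zbp1 of −0.09, all with groups that overlapped. Isg15, a ubiquitin-like modifier, was 49.2, 58.5 and 54.8 TPM in WT and 53.8, 50.8 and 52.1 TPM in the libraries labelled LRP5-KO, a log2 fold change of −0.05 with a 95% interval from −0.24 to 0.14. Usp18, the protease that removes ISG15 and restrains IFNAR, was 21.7, 21.2 and 24.3 TPM in WT and 19.5, 19.3 and 19.6 TPM in the libraries labelled LRP5-KO, without overlap (log2 fold change −0.19, limma adjusted p = 0.195).

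The 4 IFITM genes were the most abundant members by their mean over all libraries. None of them nor Bst2, the gene of tetherin, had groups without overlap, where 12.3% of all genes were lower and 17.4% higher in that way. The 4 IFITM genes summed to 6801 to 7300 TPM in WT and 6357 to 7048 TPM in the libraries labelled LRP5-KO. Ifitm1 came closest, at 369, 437 and 467 TPM against 371, 363 and 360 TPM (log2 fold change −0.21, limma adjusted p = 0.219). Ifitm2 was uneven within both groups, at 858 TPM in WT replicate 1 and 570 TPM in LRP5-KO replicate 1 against 1235 to 1430 TPM in the other libraries (log2 fold change −0.32, limma adjusted p = 0.577). For Ifitm3 (−0.09, limma adjusted p = 0.504) and Ifitm6 (0.01, limma adjusted p = 0.909) the libraries labelled LRP5-KO lay close together. The direction of Ifitm6 turned to lower under median-ratio scaling and quantile normalization and without WT replicate 3, and that of Ifitm2 to higher without LRP5-KO replicate 1.

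The Schlafen genes regulate the growth of immune cells and the translation of RNA. Slfn8 was 21.6, 20.5 and 20.1 TPM in WT and 17.96, 17.72 and 13.01 TPM in the libraries labelled LRP5-KO (log2 fold change −0.35, standard error 0.12, limma adjusted p = 0.162), and its groups separated also when its close copy Slfn9 was added. Slfn4 (log2 fold change −0.07, limma adjusted p = 0.514) and Slfn5 (−0.08, limma adjusted p = 0.569) had groups that overlapped, and Slfn4 had the opposite sign with GC and length trends removed.

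The remaining members belong to none of these families. Trim30a, a TRIM protein gene of mouse myeloid cells, was 119, 106 and 94.1 TPM in WT and 71.9, 69.1 and 70.8 TPM in the libraries labelled LRP5-KO, 33.6% less by the means (log2 fold change −0.58, standard error 0.093, limma adjusted p = 0.0546). Rtp4, which encodes a zinc-binding protein that restrains viral replication, was 55.2, 56.2 and 53.4 TPM in WT and 45.0, 46.4 and 46.2 TPM in the libraries labelled LRP5-KO (log2 fold change −0.26, limma adjusted p = 0.102). Parp14, an ADP-ribosyltransferase gene, was 24.9, 23.8 and 25.7 TPM in WT and 20.1, 21.5 and 22.5 TPM in the libraries labelled LRP5-KO (log2 fold change −0.21, limma adjusted p = 0.163). All 3 were lower without overlap, as was Ifi35 at −0.12, against 12.3% of all genes. Xaf1 at −0.15 had groups that overlapped.

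**Figure D3:**
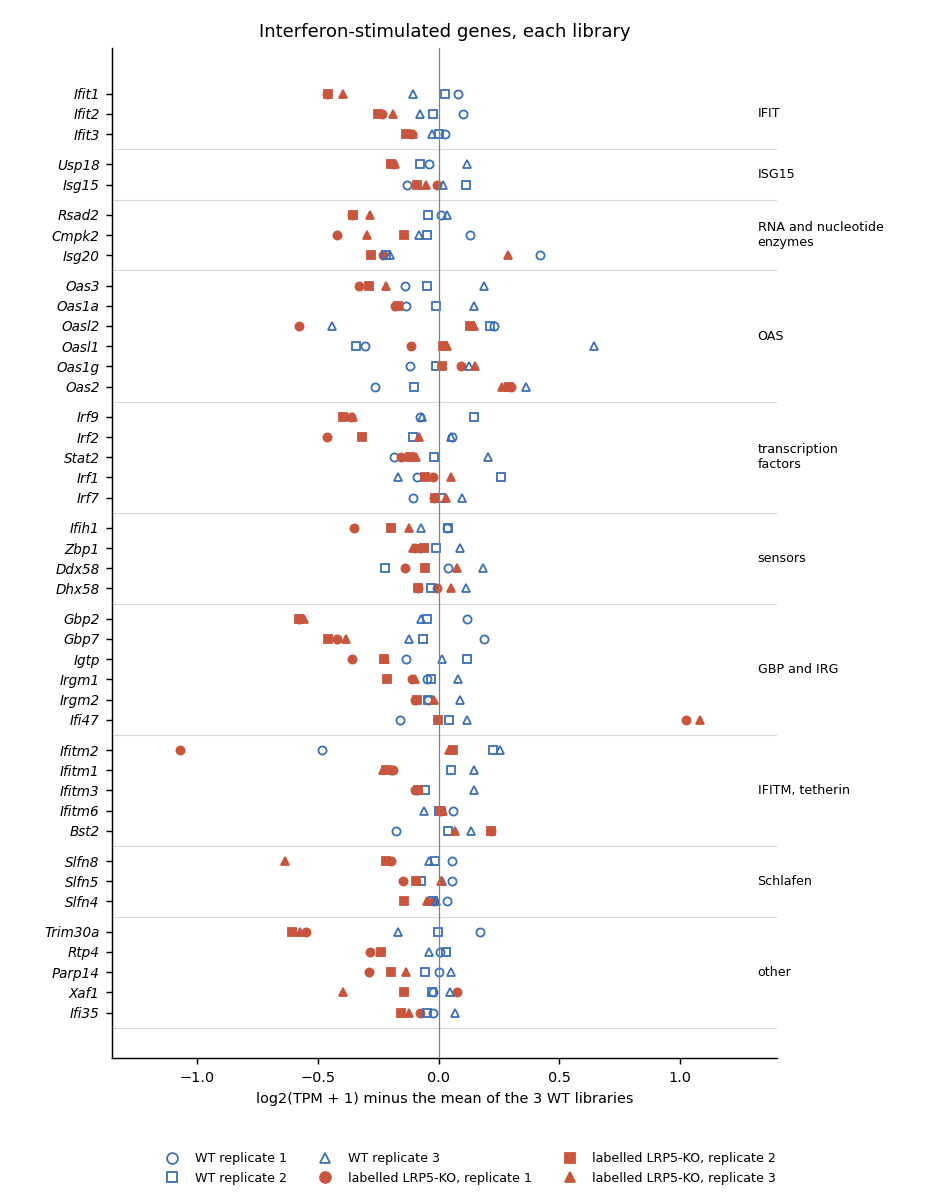
For each of the 42 tested members, grouped by role, log2(TPM + 1) in each library minus the mean of the 3 WT libraries (x axis), with open blue symbols for WT and filled red symbols for libraries labelled LRP5-KO, and circles, squares and triangles for replicates 1, 2 and 3. Red symbols lie left of all blue ones in 19 of the 42 members, where 12.3% of all genes were lower without overlap. Among the 19 are all 3 IFIT genes and none of the IFITM genes. Ifi47, Ifitm2, Oasl1 and Oasl2 have single libraries far from the rest of their group.

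The promoter word can be set beside the change in level. The 22 tested members with the word had a median log2 fold change of −0.20, and 12 of them were lower without overlap, against 12.3% of all genes. The 14 tested members with a promoter entry and no word in this window had a median of −0.09, and 4 of them were lower without overlap, among them Irf9 and Cmpk2. The 6 tested members without a promoter entry had a median of −0.14, and 3 of them were lower without overlap. Members were not chosen to balance these sets, and the difference between them was not tested.

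The receptors upstream were nearly equal in both groups. Log2 fold changes were 0.05 for Ifnar1, −0.05 for Ifnar2, 0.07 for Ifngr1 and 0.01 for Ifngr2, all with overlapping groups. Of the 15 receptor and transducer genes, all tested, 4 were lower and 1 higher at an unadjusted p under 0.05. Over all genes these shares were 9.12% and 14.4%. After adjustment 0 of the 15 were called by limma, against 0.532% of all genes. Jak1 was 200, 193 and 215 TPM in WT and 164, 167 and 181 TPM in the libraries labelled LRP5-KO (log2 fold change −0.24, limma adjusted p = 0.132), and the kinase gene Jak2 was also without overlap (log2 fold change −0.18, limma adjusted p = 0.195). Tyk2, at 0.24 (limma adjusted p = 0.316), had groups that overlapped. Socs3, an inhibitor of cytokine signaling, was 25.7, 27.5 and 32.1 TPM in WT and 39.4, 36.4 and 41.2 TPM in the libraries labelled LRP5-KO (log2 fold change 0.45, limma adjusted p = 0.0892). Of 14 genes that sense nucleic acids or induce interferon, 11 were tested, and 0 had an unadjusted p under 0.05 in limma, against 23.5% of all genes.

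A list of 57 other interferon-induced genes had 45 genes tested, with a median log2 fold change of −0.11. Of these 30 were negative, where 41.2% of all genes were. Without overlap 17 were lower and 3 higher, against 12.3% and 17.4% of all genes. At an unadjusted p under 0.05 in limma 13 were lower and 3 higher, against 9.12% and 14.4%. Ddx60 (58.0 ± 4.37 and 44.7 ± 0.812 TPM, SD, n = 3 each), Eif2ak2, the gene of the RNA-activated kinase PKR (25.9 ± 1.21 and 20.7 ± 0.890 TPM), and Slfn1 (840 ± 99.6 and 636 ± 5.41 TPM) were among the lower ones in the libraries labelled LRP5-KO. Limma called 1 gene of the list, Ifi27l2a, against 0.532% of all genes. Ifi27l2a was 264, 258 and 280 TPM in WT and 393, 379 and 352 TPM in the libraries labelled LRP5-KO (log2 fold change 0.48, limma adjusted p = 0.0398). The 13 antigen presentation genes that interferon gamma induces had a median of 0.12, against 0.04 for all genes. Of them 3 were negative, where 41.2% of all genes were. Without overlap 2 were lower and 3 higher, against 12.3% and 17.4% of all genes. In that list Tap1 and B2m were lower and H2-K1 was higher at an unadjusted p under 0.05, against 9.12% and 14.4% of all genes. After adjustment 0 were called by limma.

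Genes of immature and of mature neutrophils differed in opposite directions by their fold changes. All 9 genes of immature neutrophils were higher in the libraries labelled LRP5-KO by their fold change, where 41.2% of all genes were lower. Their median log2 fold change was 0.31, and they summed to 504 to 536 TPM in WT and 601 to 614 TPM in the libraries labelled LRP5-KO. Of 8 genes of mature neutrophils 7 were lower, where 41.2% of all genes were, with a median of −0.13. They summed to 35377 to 39232 TPM in WT and 34144 to 35469 TPM in the libraries labelled LRP5-KO, so these sums overlapped. In limma 0 of either list were called, against 0.532% of all genes. At an unadjusted p under 0.05, 6 of the immature genes were higher, against 14.4% of all genes. At that p 3 of the mature genes were lower, against 9.12%. Without overlap 6 of the immature genes were higher and 4 of the mature genes lower, against 17.4% and 12.3% of all genes. Their part in the lower levels of the interferon-stimulated genes was not tested.

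Markers of other cells differed less evenly. The 8 monocyte and macrophage genes summed to 51.8 to 63.7 TPM in WT and 62.5 to 70.8 TPM in the libraries labelled LRP5-KO, with 3 higher at an unadjusted p under 0.05, Cx3cr1 and Ms4a7 below 1 TPM in every library and none at 0 in all of them. The 6 plasmacytoid dendritic cell genes summed to 14.4 to 16.4 TPM and 15.2 to 16.8 TPM, and 4 of them, Siglech among them, stayed below 1 TPM. The 6 T and NK cell genes summed to 11.4 to 13.4 TPM in WT and 15.5 to 17.1 TPM in the libraries labelled LRP5-KO, with Cd3d the 1 gene higher at an unadjusted p under 0.05 and Cd3e below 1 TPM. The 6 B cell genes (11.7 to 13.6 and 12.0 to 13.1 TPM) and the 6 erythroid genes (42.7 to 49.7 and 35.7 to 46.0 TPM) had 0 and 1 gene with an unadjusted p under 0.05 in limma and 0 called. Over all genes 14.4% were higher and 9.12% lower at that p. The part of these other cells in the levels of the members was not tested.

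Medians of both the members and all genes lay lower when the ribosomal share or GC trend of the libraries was taken into account. The members' median minus that of all genes was −0.17 without these steps. This difference was −0.19 with the ribosomal share as a covariate, −0.18 with GC and length trends removed and −0.20 against WT replicate 3 alone. Against WT replicate 3 alone, the WT library closest in ribosomal share and GC trend to those labelled LRP5-KO, the members' median was −0.21 and that of all genes −0.0065, and 36 members had a negative fold change against 51.4% of all genes. With the ribosomal share as a covariate the members' median was −0.19 against 0.0059, and with trends by GC content and length removed it was −0.18 against −0.00011. In that last fit limma called 11 members, all lower: Gbp2, Gbp7, Ifi35, Ifit1, Irf9, Oas3, Parp14, Rsad2, Rtp4, Trim30a and Usp18. Over all genes it called 430 in either direction (4.90%), 273 of them lower. Without WT replicate 3, limma called 9 of the 42 members, 7 lower and 2 higher. Over all genes it called 1920 in either direction, 740 of them lower. That is 19.6% of all genes, close to the share of the members.

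**Figure D4:**
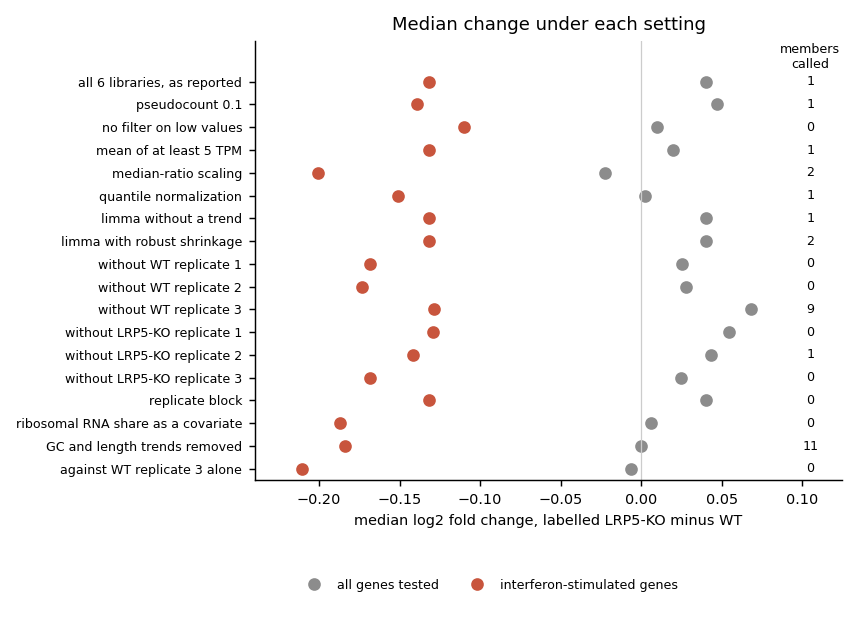
Median log2 fold change (x axis), libraries labelled LRP5-KO minus WT, of the interferon-stimulated genes (red) and of all genes tested (gray) under each setting (y axis), with the number of members called by limma at the right. The members' median lies between −0.21 and −0.11 and left of that of all genes in each of the 18 fits, while the number called runs from 0 to 11.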

How the data were processed

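Bulk neutrophil RNA of mouse bone marrow was sequenced in 3 WT and 3 LRP5-KO libraries, grouped by the genotype in the labels. The authors deposited TPM for 52636 genes, scaled per transcript length and to the same total (1000000) in each library, from reads aligned to mm9; they name DESeq2 for the analysis, and the tool behind the TPM is not given in the sources used here. TPM keeps no depth, so no count test was run and no interval from counts is given. The authors also deposited a read summary per library, with counts of reads, shares in percent, a ratio for the bias of coverage toward either end of transcripts, a score of how coverage varied and read lengths in bases. The labels name a Percoll gradient and an mRNA kit, whereas the methods name a CD11b and Ly6G sort and a stranded total RNA kit, and 99.37% or more of reads lay on the correct strand.

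The 9775 genes averaging 1 TPM or more were fitted in limma 3.58.1 under R 4.3.3 on log2(TPM + 1) with a trended variance. P-values were adjusted by Benjamini-Hochberg over all genes tested and called under 0.05, and the fit was tested on simulated data. Members and lists were chosen with earlier results of these data known. Members with an unadjusted p under 0.05, the 10 largest fold changes and the 5 highest levels were given in most detail. Of other lists, genes with an unadjusted p under 0.05 could be named, and a selection of them made after their values were seen is given, with Ifnar1, Ifnar2, Ifngr1, Ifngr2, Jak1, Jak2 and Tyk2 whatever their p. Ly6g, Siglech, Ifng, Cx3cr1, Ms4a7, Cd3e and the genes that overlap or closely copy members were named outside this rule. Alternatives were another pseudocount (0.1), no filter or 5 TPM, median-ratio and quantile scaling, limma without a trend or robust, each library left out, a replicate block, the ribosomal share as a covariate, removal of GC and length trends (8769 genes with a value, 89.7%) and, added after seeing the data, WT replicate 3 alone. Same-numbered libraries had correlations of their deviations of 0.229, −0.008 and 0.131, so the numbers were not taken to pair them. Promoters came from RefSeq (GRCm38.p6), and gene positions and overlaps from GENCODE M1 (NCBIM37, the same build as mm9). The result of 1 gene of the receptor and transducer list is not reported here.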

Additional observations from a re-analysis of the deposited data

How the results depend on the processing

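The members' median log2 fold change of −0.13 stayed below 0 in each setting. It was −0.20 with median-ratio scaling, −0.19 with the ribosomal share as a covariate, −0.18 with GC and length trends removed, −0.21 against WT replicate 3 alone (chosen after seeing the data) and −0.17 to −0.13 with 1 library left out. The number of members called depended on the setting. From 1 it went to 0 without a filter, with the replicate block, with the covariate and against WT replicate 3 alone, to 2 with median-ratio scaling (Gbp2 and Rsad2) or robust shrinkage (Gbp2 and Trim30a), to 11 with GC and length trends removed and to between 0 and 9 with 1 library left out, the 9 without WT replicate 3. Over all genes 52 were called, 26 of them lower. This became 3 without a filter, 29 at 5 TPM, 83 with median-ratio scaling (53 lower), 4 with the replicate block, 6 with the covariate, 430 with GC and length trends removed, 6 against WT replicate 3 alone and 2 to 1920 with 1 library left out, the 1920 without WT replicate 3. The block ended the call of Gbp2 (limma adjusted p = 0.112), and not every library correlated best with its own number. The causes were not tested. Leaving out 1 library gave 9 to 14 members lower at an unadjusted p under 0.05, against 16, with 9 and 10 without LRP5-KO replicates 1 and 2. The share of all genes lower at that p in these fits was not counted. Members lower without overlap numbered 20 to 27 under the other scalings, with the trends removed and with 1 library left out, against 13.9% to 20.3% of all genes. Directions reversed for Ifitm2 without LRP5-KO replicate 1 (0.052, over a range with 1 library left out from −0.56 to 0.052), for Ifitm6 with median-ratio scaling (−0.061), quantile normalization (−0.016) and without WT replicate 3 (−0.017, over a range from −0.017 to 0.042), and for Slfn4 with trends removed (0.016). With 1 spacer base instead of 2, the word stood in 23.4% of member promoters against 3.17% of all. Values under these settings were tallied for the members given in most detail. Of these values 342 kept their direction and side of the threshold, 18 passed it, 9 lost it and 5 reversed direction. Only Gbp2 was called to begin with, so keeping a side mostly meant staying uncalled. TPM gives no reads per gene, so the precision of the members under 1 TPM cannot be stated.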
